A study of Homo sapiens with 8 samples.

Results

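The 5 human CD1 genes, CD1D, CD1A, CD1C, CD1B and CD1E, were followed across the 4 peak lists of a chromatin immunoprecipitation experiment in OPM-2 cells. A peak was taken as theirs when it overlapped an annotated gene body or the 20 kb on either side of it. This gave 9 peaks of 189160 in the 4 lists, at 5 of 19970 protein-coding genes. The DMSO list gave 3 of them, the list of the library labelled ATRA 0, the pomalidomide (POM) list 2 and the ATRA+POM list 4. The family was picked because of its peaks in these same lists, so what follows describes the peaks and tests no difference.

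OPM-2 is an established line of human multiple myeloma, a cancer of plasma cells, with the t(4;14) rearrangement. Each culture was treated for 72 h. The DMSO culture received the solvent alone and served as the control. The ATRA culture received 1 µM all-trans retinoic acid, the ligand of the retinoic acid receptors. The POM culture received 1 µM pomalidomide, a drug that redirects the cereblon ubiquitin ligase. The ATRA+POM culture received both compounds at 1 µM each. Each treatment had 1 immunoprecipitated library and 1 input library, so no spread between replicates was available. All 4 groups are cultures of the same line, and the labels do not name the antibody, so what the peaks mark is unknown.

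CD1 proteins are relatives of MHC class I molecules. They pair with B2M and hold a lipid, rather than a peptide, in their groove. CD1A, CD1B and CD1C show lipids to varied T cells and are best known from dendritic cells and thymocytes. CD1D shows glycolipids to natural killer T cells and is also found on B-lineage cells. CD1E stays inside the cell and helps to load lipids onto the other family members.

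The 4 lists held 36742 to 54279 peaks on chromosomes 1 to 22 and X. The sequencing depth inferred from the peak values, relative to DMSO, was 0.902 for ATRA+POM, 0.927 for POM and 0.133 for the ATRA-labelled library. Only 10 of 19970 genes (0.0501%) had a peak in the ATRA-labelled list and none with DMSO. The part of the low depth in this count was not tested, and that list is called by its label here. Loci of all 7 plasma cell markers chosen for the check, among them SDC1 and TNFRSF17, held a peak in each list. Markers of other cells had peaks as well, in the order DMSO, ATRA-labelled, POM and ATRA+POM at 4, 3, 6 and 6 of 8 myeloid and dendritic loci, 2, 2, 4 and 3 of 5 T cell loci and 3, 2, 2 and 3 of 4 B cell loci. Over all genes the shares were 72.6%, 62.8%, 73.7% and 67.9%, so such counts do not identify a cell type. A peak is not a measure of expression.

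The sequence around an annotated CD1D start is shown because called peaks reached it with ATRA+POM and in no other list. RefSeq windows run from 250 bases before to 50 bases after a start, and 4 of the 5 members had at least 1, with 6 windows in all. CD1B is not among them. The first CD1D window (GRCh38.p14, chr1:158179697-158179996, plus strand, 5′ to 3′) follows, with the 170 of its 300 bases that lay inside an ATRA+POM peak in capitals.
CD1D first window: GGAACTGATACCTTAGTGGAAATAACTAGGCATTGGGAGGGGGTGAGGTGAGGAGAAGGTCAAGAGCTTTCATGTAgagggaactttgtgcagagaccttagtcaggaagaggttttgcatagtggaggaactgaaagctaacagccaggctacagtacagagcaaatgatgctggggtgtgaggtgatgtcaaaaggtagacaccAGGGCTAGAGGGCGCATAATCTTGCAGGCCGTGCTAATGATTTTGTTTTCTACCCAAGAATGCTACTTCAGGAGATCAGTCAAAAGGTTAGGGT
The second CD1D window (chr1:158180645-158180944, plus strand) surrounds a start farther along the gene, and no base of it lay in a peak of any list.
CD1D second window: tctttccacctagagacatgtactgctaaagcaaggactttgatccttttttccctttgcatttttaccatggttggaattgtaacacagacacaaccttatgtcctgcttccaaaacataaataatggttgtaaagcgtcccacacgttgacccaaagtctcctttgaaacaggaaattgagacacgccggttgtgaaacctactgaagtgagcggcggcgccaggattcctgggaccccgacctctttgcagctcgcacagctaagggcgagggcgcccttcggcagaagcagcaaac

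The capitals of the first window come from a pair of neighbouring peaks that leave the bases in between uncalled. The letters AGGTCA, the hexamer that nuclear receptors read, occurred once in this window, at 158179753 to 158179758, inside the wider of these peaks, at position -194 from the start. AGGTCA was found on either strand in 13.8% of 34961 RefSeq windows and in 2 of the 6 CD1 windows, the other being that of CD1C. GAGGAA, the core bound by PU.1, stood at 158179822 to 158179827, in the stretch between the peaks. It was present in 27.9% of all windows and in 3 of the 6, namely the first windows of CD1D and CD1A and that of CD1C. TGGGAA, the core read by Ikaros proteins, was found in 24.0% of all windows and in 1 of the 6, the second window of CD1A. The motif of interferon regulatory factors, GAAA repeated after 2 free bases (3.58% of all windows), TGANTCA (AP-1, 7.68%) and GGGCGG (a GC box, 45.0%) were in none of the 6. CANNTG, the E-box, was in 4 of them and in 68.7% of all windows. Both strands were searched, and letters alone do not show a bound site.

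CD1D (chromosome 1, 158178030 to 158186427) held all 4 of the ATRA+POM peaks. Its strongest peak lay upstream of the gene, at 158161946 to 158164716, with the summit 15.0 kb before the annotated gene start. The fold enrichment there, the authors' own value for the summit over its local background, was 84.3. The summit held 2243 reads (exact Poisson 95% interval 2151 to 2338, counting error only) over a background of 25.6. These reads are inferred from the deposited fold and p. The peak was 2771 bp wide, and 2.17% of ATRA+POM peaks were at least as wide. No peak was called at this place with DMSO, with POM or in the ATRA-labelled list.

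Ordered by −log10 q, this peak stood at rank 24 of 47193 in the ATRA+POM list, and by fold enrichment at rank 144. Of the 100 strongest peaks of that list by −log10 q, 96 overlapped a peak in all 3 other lists. The CD1D peak was the 1 that overlapped none. In all, 3520 ATRA+POM peaks (7.46%) overlapped no other list. Their median was 35 summit reads and a fold enrichment of 5.46. Next by −log10 q among them was a peak of 569 reads and a fold of 64.7, and the most reads in any of the others was 1203.

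**Figure D1:**
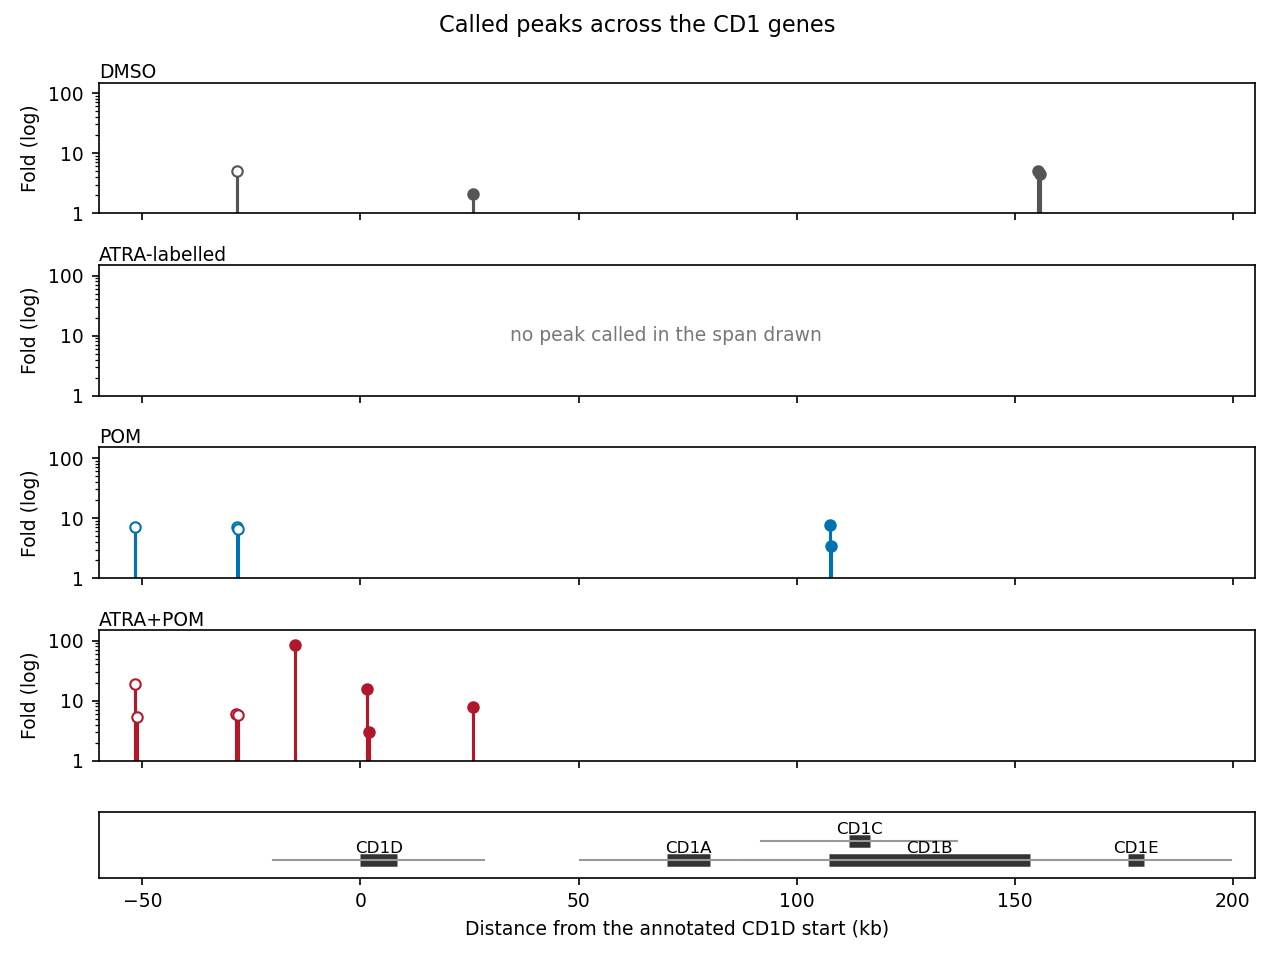
Each panel plots the called peaks of 1 list by fold enrichment (log axis) against the distance of the summit from the annotated CD1D start in kb. Filled points lie within 20 kb of a CD1 gene, open points lie outside, and the bottom panel shows gene bodies (thick) with their windows (thin). The ATRA+POM peaks gather at CD1D with folds of 84.3, 15.4, 7.84 and 3.00, and the ATRA-labelled panel is empty.

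Near the start of CD1D a pair of peaks was called with ATRA+POM alone. The wider one (158178525 to 158179772, 1248 bp) lay inside the annotated gene body, with its summit 388 bp before the start that the first window surrounds. It had a fold enrichment of 15.4, 406 summit reads (367 to 447) and a background of 25.5, and 8.68% of the list ranked at least as high. The narrower one (158179903 to 158180230, 328 bp) had its summit 52 bp after that start. Its fold enrichment was 3.00, with 53 reads (39.7 to 69.3). At least that fold was reached by 98.4% of ATRA+POM peaks, and at least its −log10 q by 88.4%. The pair therefore joins a peak from the upper part of the list with one from its weaker end.

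The fourth ATRA+POM peak (158203478 to 158203913) lay downstream of CD1D, with the summit 17.3 kb past the gene end. It was the only place at the 5 genes that was called in more than 1 list, since a DMSO peak lay at 158203653 to 158203908 with its summit 38 bp away. With DMSO the summit had 85 reads (67.9 to 105) over a background of 39.4, a fold enrichment of 2.13. With ATRA+POM it had 338 reads (303 to 376) over a background of 42.2, a fold of 7.84. The background thus differed little between the libraries while the reads differed 3.98 times, or 4.41 times after scaling by the inferred depth. Over 17658 places where summits of the DMSO and ATRA+POM lists lay within 50 bp, the median ratio of reads was 0.546, or 0.606 after scaling. A fold ratio at least as large as the 3.69 here was seen at 274 of them (1.55%). The DMSO peak was among the weakest of its list, with 10 of 50946 peaks at a lower fold enrichment.

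Absence from a list was set against what its depth could show, taking the enrichment of the libraries to be alike. Scaled to the depth of each list, the 2243 reads of the upstream peak would be 2486 at the DMSO depth, 330.0 at that of the ATRA-labelled library and 2305 at that of POM. Peaks with a background within 20% of the scaled one went down to 47, 14 and 46 reads in those lists. The wider peak at the start would have 450.0, 59.7 and 417 reads against the same lowest values. The downstream peak would have 375 reads with DMSO, where 85 were found, 347 with POM and 49.7 in the ATRA-labelled library. The weakest called peaks there had 85, 74 and 21. The 85 with DMSO are the reads of the peak called at this place itself, so no absence is judged in that list. All of these scaled values lie above the weakest called peaks. The narrow peak at the start is different, because its scaled 7.80 reads in the ATRA-labelled library fall under the weakest 11. Its 54.5 reads with POM lie above the minimum of 34 and just below the 5th percentile of 55. Its absence was thus not detectable as a difference at the depth of the ATRA-labelled library.

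**Figure D2:**
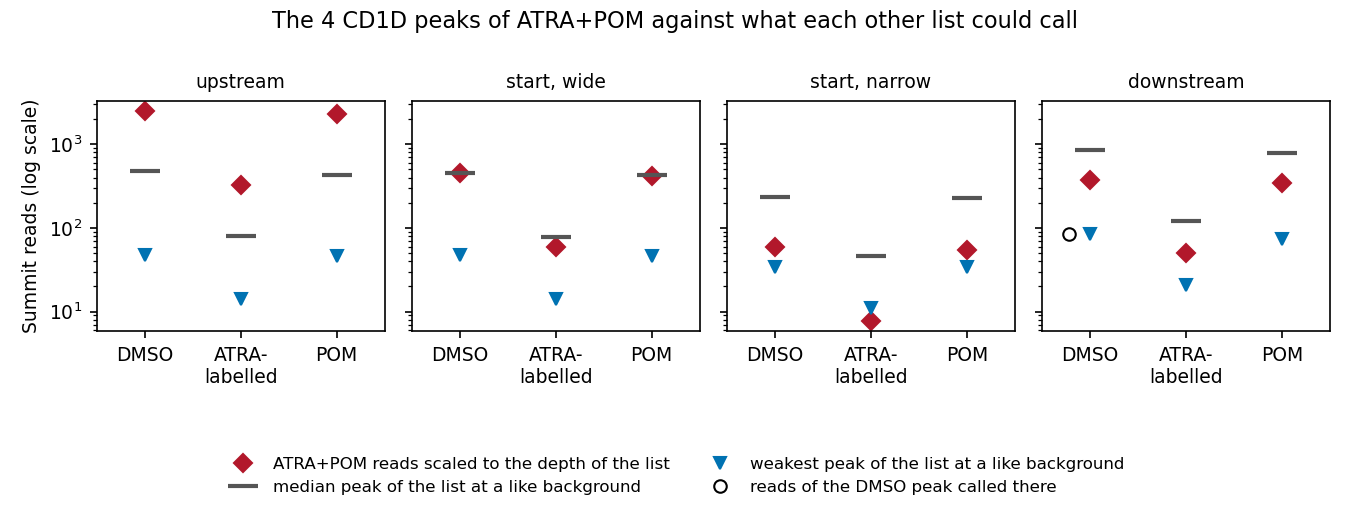
For each of the 4 CD1D peaks of ATRA+POM, diamonds give the summit reads scaled to the depth of the DMSO, ATRA-labelled and POM lists (log axis). Triangles and bars give the weakest and the median peak of that list at a like background, and the open circle gives the 85 reads of the DMSO peak downstream. The upstream peak would lie above the median in all 3 lists, and the narrow start peak would lie below the weakest in the ATRA-labelled list.

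As a locus, CD1D had peaks in the DMSO and ATRA+POM lists and in neither other list. This combination was found for 37 of 19970 genes (0.185%, 95% Wilson interval 0.134 to 0.255). The interval treats genes as independent draws, although windows of neighbouring genes share peaks, and it holds no spread between libraries. Those 37 had a median strongest ATRA+POM fold of 5.42. A peak in the ATRA+POM list and none with POM was found for 209 genes (1.05%), and 1 of the 5 CD1 genes, CD1D, was among them. At least 4 more peaks with ATRA+POM than with POM were called at 250 genes (1.25%), where CD1D had 4 against 0. A strongest ATRA+POM peak at least as high as that of CD1D was found for 169 genes (0.846%). At least 3 more peaks with ATRA+POM than with DMSO were called at 1242 genes (6.22%), which includes CD1D with 4 against 1. The strongest ATRA+POM peak of CD1D had 39.6 times the fold of its strongest DMSO peak, which lies at another place of the locus. Of 12955 genes called in both lists, CD1D alone reached that ratio (0.00772%), and the median ratio was 0.607. CD1D was chosen for these values, so nothing is read from them.

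**Figure D3:**
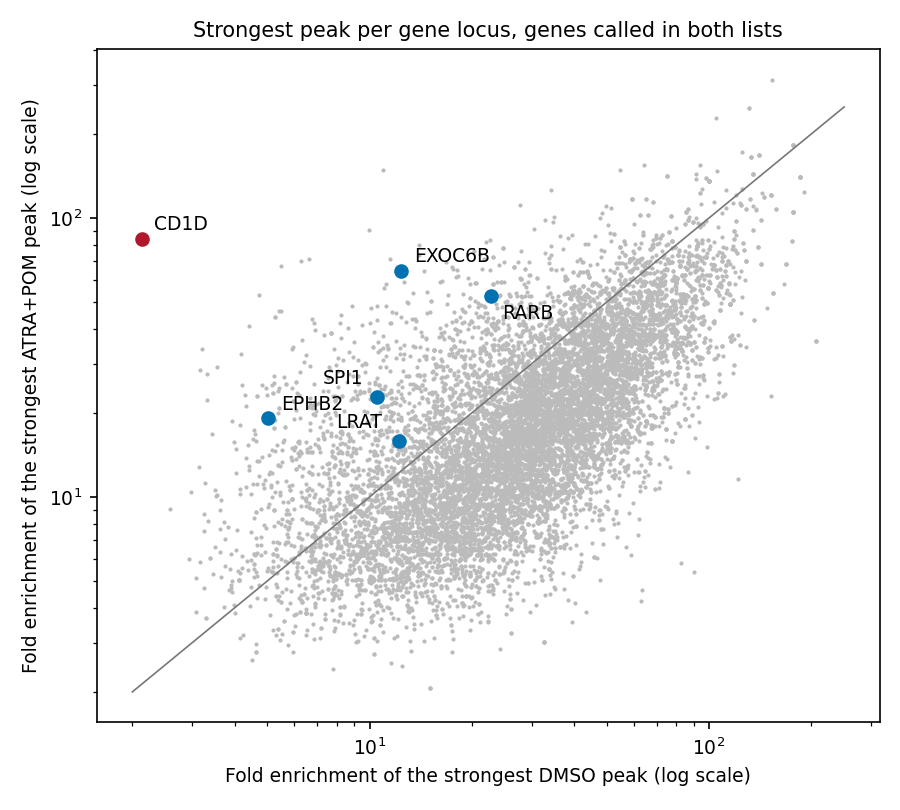
Each point is 1 of 12955 genes with a peak in both lists, placed by the fold enrichment of its strongest DMSO peak (x, log axis) and strongest ATRA+POM peak (y, log axis) within 20 kb of the gene body, with a line of equality. CD1D lies at 2.13 and 84.3, apart from the cloud, most of which is under the line.

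The genes most like CD1D were sought by the distance over the 4 lists in log2(fold of the strongest peak + 1). The nearest were PARD6G (distance 2.02), EXOC6B (2.13), TRHDE (2.15), EPHB2 (2.29) and TCN1 (2.49). PARD6G, a cell polarity protein gene on chromosome 18, had a single peak in any list, with ATRA+POM (fold 37.0, 123 reads). EXOC6B, which encodes an exocyst subunit, had 15 peaks with ATRA+POM and 3 with DMSO, with strongest folds of 64.7 and 12.4. TRHDE, the gene of a peptidase that breaks down thyrotropin-releasing hormone, had 4 peaks with ATRA+POM alone (31.8, 589 reads). EPHB2, a receptor of ephrins, had 3 with ATRA+POM and 1 with DMSO, with folds of 19.1 and 5.03. TCN1, which encodes a vitamin B12 carrier, had 2 with ATRA+POM alone (22.3, 128 reads). None of these 5 had a peak with POM or in the ATRA-labelled list, and none reached the 2243 reads at CD1D.

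CD1B (chromosome 1, 158285405 to 158331531), which has the largest lipid groove of the family, carried peaks at both of its ends, each in a different list. The annotated CD1B body encloses CD1C (158289923 to 158294774), so peaks at its low end count for both genes. With POM, a pair lay just inside that end, at 158285533 to 158285816 and at 158285935 to 158286222. They had fold enrichments of 7.55 and 3.50 and summit reads of 112 (92.2 to 135) and 42 (30.3 to 56.8). No other list had a peak there. In the POM list, 60.6% and 96.7% of peaks had at least these folds, so both belong to its ordinary or weaker part.

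With DMSO, a pair lay 1.92 and 2.18 kb beyond the high end of CD1B, at 158333340 to 158333594 and at 158333646 to 158334171. They had fold enrichments of 4.96 and 4.56 and summit reads of 71 (55.5 to 89.6) and 103 (84.1 to 125). The second of them also reached the window of CD1E (158353894 to 158357553), which begins at 158333894. It was the sole peak of CD1E in any list. In the DMSO list, 80.5% and 84.9% of peaks had at least these folds. CD1A (158248336 to 158258269), a marker of Langerhans cells, had no peak in any list, which was so for 22.5% of all genes.

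Scaled to ATRA+POM, the stronger POM peak at CD1B would have 109 reads and the DMSO pair 64.1 and 92.9. The weakest called peaks there had 28, 27 and 36 reads, and the 5th percentiles were 44, 41 and 57. Scaled to POM, the DMSO pair would have 65.8 and 95.5 reads, against weakest peaks of 28 and 38 and 5th percentiles of 43 and 62. The stronger POM peak scaled to DMSO would have 121 reads, against a weakest peak of 30. At places shared by the POM and ATRA+POM lists the median ratio of reads, ATRA+POM over POM, was 0.617 after scaling. At those shared by the DMSO and ATRA+POM lists it was 0.606, ATRA+POM over DMSO. ATRA+POM peaks at shared places were thus weaker at the median. The scaled values leave this out, and its part in the absences was not tested. In the ATRA-labelled library the stronger POM peak and the DMSO pair would have 16.0, 9.43 and 13.7 reads, against weakest peaks of 10, 9 and 12. The 5th percentiles of such peaks were 15, 13 and 18 reads, so the stronger POM peak would lie just above the 5th percentile and the DMSO pair between the weakest peak and that mark. The weaker POM peak would have 6.01 reads there, under the weakest peak of 9, so its absence was not detectable as a difference at that depth. It would have 45.3 reads with DMSO and 40.9 with ATRA+POM, against weakest peaks of 26 and 25 and 5th percentiles of 40 and 38. The DMSO peak after CD1D would have 11.3 reads in the ATRA-labelled library, under the weakest peak of 21, so there too no difference was detectable. With POM it would have 78.8 reads, above the weakest peak of 66 and below the 5th percentile of 105.

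Counted by gene, 3 of the 5 members had a peak with DMSO (CD1D, CD1B and CD1E), where 72.6% of all genes had one. With POM it was 2 of 5 (CD1B and CD1C, 73.7% of all genes) and with ATRA+POM 1 of 5 (CD1D, 67.9%). In the ATRA-labelled list it was 0 of 5 (62.8%). Taken as differences, DMSO and not the ATRA-labelled list held for 3 of 5 (9.91% of all genes), and ATRA+POM and not the ATRA-labelled list for CD1D (8.0%). DMSO and not POM held for CD1D, by its weak downstream peak alone, and for CD1E (3.14%), and the reverse for CD1C (4.18%). DMSO and not ATRA+POM held for CD1B and CD1E (7.75%), and POM and not ATRA+POM for CD1B and CD1C (6.78%). CD1C was called with POM alone, as were 1.86% of genes, CD1E with DMSO alone, as were 2.15%, and CD1B with DMSO and POM but in neither other list, as were 2.78%. The windows of the 5 genes cover 198 kb, and they held 2.02 peaks per 100 kb with ATRA+POM, 1.52 with DMSO and 1.01 with POM. The lists as a whole held 1.56, 1.68 and 1.79 per 100 kb. Merged across lists, the 9 peaks formed 8 regions, of which 3 were called with ATRA+POM alone, 2 with POM alone, 2 with DMSO alone and 1 with both DMSO and ATRA+POM. Over the genome, 5.23%, 14.3%, 16.3% and 1.07% of 67328 regions fell in those sets, and 28.8% were called in all 4 lists, which no CD1 region was.

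The background behind the CD1D peaks was high. It was 17.0 to 42.2 reads at the 4 ATRA+POM peaks, where the list median was 7.17, and between 0.144% and 8.21% of the list had a background at least as high. At the DMSO peaks of the 5 genes it was 13.5 to 39.4 (list median 8.17) and at the POM peaks 11.3 and 14.0 (6.65). How far this background bears on which peaks were called was not tested. Since the fold enrichment divides by this background, the reads and the folds are both given here.

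The limit of 20 kb left out 2 places on the side away from the other CD1 genes. On that side the outermost peak within the limit was the upstream one, 15.0 kb before CD1D, and the downstream peaks lay 17.3 and 17.4 kb past its end. Outside, the nearest peaks lay 28.0 to 28.5 kb before the CD1D start. There, peaks were called with DMSO (fold 5.06), POM (7.06 and 6.52) and ATRA+POM (6.00 and 5.67), in a narrow range of folds. Farther out, 51.6 to 51.7 kb before CD1D and beside the small gene SMIM42, a peak had a fold of 18.6 and 506 reads with ATRA+POM and 7.22 and 179 reads with POM. Over 24996 places shared by those lists, 0.872% had a fold ratio at least as large as the 2.57 seen there. A further ATRA+POM peak beside it had a fold of 5.26.

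The surroundings were otherwise sparse. Of the 21 other protein-coding genes within 500 kb, 8 had a peak with ATRA+POM, 8 with POM, and the DMSO and ATRA-labelled lists had 7 each. Of the 13 olfactory receptor genes beyond CD1E, 2 had a peak, in each list. KIRREL1, an adhesion protein gene before CD1D, had none in any list. FCRL2, FCRL1 and FCRL3, which encode Fc receptor-like proteins of B cells, and CD5L had peaks in all 4 lists. At FCRL2 the strongest fold was 10.5 for DMSO, 15.4 for POM and 26.7 for ATRA+POM. Windows of neighbouring genes share peaks here: the value of 26.7 is also that of FCRL1, whose 34.8 with DMSO and 29.4 with POM are in turn those of CD5L. Strongest folds of 1 gene can therefore come from different places in different lists. In the ATRA-labelled list, at an inferred depth of 0.133, no peak was called over 880 kb around the family. This ran from 328 kb before the CD1D start to 372 kb past the CD1E end. Between the nearest peaks outside the family windows the span was 579 kb with DMSO, 359 kb with POM and 359 kb with ATRA+POM. With DMSO the first peak past the CD1E end was also 372 kb away.

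The 6 lists of genes that help CD1 molecules held 47 genes, all of which matched the annotation. The combination of lists seen at CD1D was found for none of them, and over all genes it was found for 0.185%, so a 0 says little. Of the 47, 38 had a peak in the DMSO list (72.6% of all genes) and the same 38 in the ATRA+POM list (67.9%), so 0 were gained (3.04% of all genes, and 0 of the 5 CD1 genes, had ATRA+POM peaks without DMSO peaks) and 0 were lost (7.75%). The ratio of strongest folds, ATRA+POM over DMSO, was at least 2 for 2 of the 38 (3.75% of all genes called in both) and at most 0.5 for 8 (34.4%). The helper genes named in what follows were chosen after their values were seen.

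Among assembly factors, B2M, the light chain of every CD1 molecule, had a strongest fold of 14.0 (75 reads) with DMSO, 18.0 (77) with POM and 10.1 (33) with the combination, and no peak in the ATRA-labelled list. CANX and CALR, chaperones of the endoplasmic reticulum, had ratios of 0.348 and 0.331, and the 4 members called in both lists had a median of 0.536. Among the lipid loading genes, PSAP, the precursor of the saposins that put lipids into CD1D, had folds of 17.3 with DMSO, 20.1 with POM and 22.4 for the combination. MTTP, a lipid transfer protein that acts on CD1D in the endoplasmic reticulum, had 69.9, 54.1 and 37.4. The median ratio of the 8 called lipid loading genes was 0.632.

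The 8 called trafficking genes, which include the adaptor subunits AP3B1 and AP3D1 that steer CD1B to lysosomes, had a median ratio of 0.547. The 6 called self lipid genes had 1.05, with ASAH1, the acid ceramidase, highest at 1.51. Of the MHC class I-like relatives, MR1, which presents vitamin metabolites, had folds of 37.7, 46.2 and 30.1 in the same order, while AZGP1 and PROCR had no peak. The median over all genes called in both lists was 0.607, and 4 of the 6 helper lists had medians between 0.522 and 0.632.

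Among the 9 regulators of CD1D, 2 had a ratio of at least 2. SPI1, which encodes PU.1, had 1 peak each with DMSO (fold 10.5, 80 reads), POM (47.2, 203) and ATRA+POM (22.9, 204) and none in the ATRA-labelled list. RARB, the gene of a retinoic acid receptor, had its strongest peak at a fold of 65.0 with POM, 52.6 with ATRA+POM, 22.8 for DMSO and 15.1 for the ATRA-labelled library. For both, the value with POM alone was the highest, unlike CD1D, which had no peak with POM. LEF1 and RARA had the lowest ratios of the 9, 0.366 and 0.418.

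**Figure D4:**
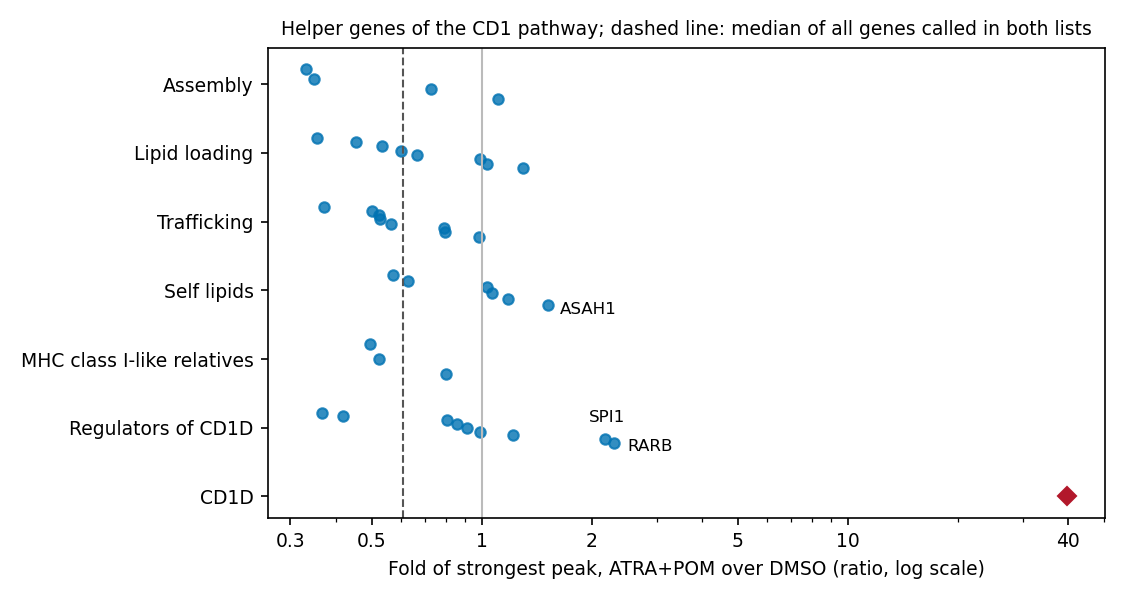
Each circle is a helper gene with a peak in both lists, placed by the ratio of its strongest ATRA+POM fold to its strongest DMSO fold (log axis) and grouped by role. The dashed line is the median of all genes called in both lists (0.607), and the diamond is CD1D at 39.6. SPI1 and RARB are the only helpers past 2.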

How the data were processed

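Peak lists of 4 ChIP libraries were used, 1 per treatment, in 10 columns without a header. Per the submitters' processing notes the build was hg38. No aligner, caller or antibody is named (not given in the sources used here). The 4 input libraries were not used. The deposited values are a score (10 times the −log10 p), a fold enrichment (the authors' ratio of summit to local background), and a −log10 p and −log10 q, called by the authors per library. The deposited distance from peak start to summit gave the summit position.

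Genes came from RefSeq (GRCh38.p14, the same build), with 19970 protein-coding symbols on chromosomes 1 to 22 and X. Positions count from 1, and exons were not used. Overlaps needed at least 1 bp. Summit reads and background were inferred from fold = (reads + 1)/(background + 1) and a Poisson upper tail for p. Reads came out whole within 0.02 for 100.0% of peaks in each list. Relative depth came from the lowest background value shared by 20 or more peaks, over the width of the narrowest peak. PCR copies cannot be told from molecules, so intervals and limits cover counting error only. With 1 library per group no test was made.

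Named genes were the 5 members, the 5 nearest genes to CD1D, neighbours within 500 kb, and helpers called in a single list or with ATRA+POM and not DMSO, of which there were none. Others are said to be chosen later. The members and lists were chosen with earlier results of these data known. Alternatives were other windows, overlaps, peak subsets and merging. On simulated data 100.0% of 3000 summit reads were recovered and 100.0% of 100 overlap counts were equal to a plain loop. Scripts ran in Python 3.11.15 with pandas 2.3.3, numpy 2.4.6 and scipy 1.17.1, and matplotlib 3.10.9 drew the figures.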

Additional observations from a re-analysis of the deposited data

How the results depend on the processing

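With 1 library per treatment, every absence rests on a single list. No paired analysis was possible because each treatment had 1 library and the labels carry no replicate numbers. Of 80 recomputed counts and shares, 51 stayed within 1.5 times the reported count or inside the interval of the share, and 29 did not. The ATRA-labelled counts were 0 throughout and are among the 51. Only the 50 kb windows could have raised them, so their other alternatives could not move. This also held for the 0 POM peaks of CD1D, which rose to 2 with 50 kb windows. Their other alternatives are among the 51 too. With 5 kb windows, CD1D had 0 DMSO and 2 ATRA+POM peaks, and the 5 genes had 2 ATRA+POM peaks, because the upstream and downstream peaks fall outside. With 50 kb windows, CD1D had 2 DMSO and 2 POM peaks and the 5 genes 4 POM peaks. With the stronger 50% of each list, the 5 genes had 0 DMSO and 1 POM peak and CD1D 0 DMSO peaks, with 0 regions called with DMSO alone, 0 with DMSO and ATRA+POM and 1 with POM alone, and the share of genes with the CD1D pattern was 0.255%. With an equal number of peaks, CD1D had 0 DMSO peaks and the 5 genes 1 POM peak, with 0 regions in DMSO and ATRA+POM and 1 with POM alone. With a fold of at least 10, the 5 genes had 0 DMSO and 0 POM peaks, CD1D 0 DMSO peaks, and 2 ATRA+POM peaks remained at CD1D and over the 5 genes, with 0 regions in each of the DMSO, POM and DMSO with ATRA+POM sets. With peaks merged within 500 bp, the 5 genes had 1 POM peak, with 1 region each for POM alone and DMSO alone. Without the ATRA-labelled list, chosen after seeing the data, 0.315% of genes had the pattern. The upstream CD1D peak was called with ATRA+POM alone in each alternative whose window holds it. That was fixed in advance, because no alternative called peaks anew, so none could add a peak of another list there. At the depth of the ATRA-labelled library the narrow CD1D start peak, the DMSO peak after CD1D and the weaker POM peak at CD1B would fall under the weakest called peaks.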

Other observations

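The 37 genes with peaks in the DMSO and ATRA+POM lists and in neither other list were ranked by their strongest ATRA+POM fold, and those named here were chosen after their values were seen. CD1D came first (84.3), then EXOC6B (64.7), EPHB2 (19.1) and LRAT (15.9, 91 summit reads). LRAT encodes the enzyme that esterifies retinol for storage, and its strongest DMSO fold was 12.2, close to the ATRA+POM value. DNAH3, a dynein gene that follows, was lower with ATRA+POM (7.13) than with DMSO (16.1). Each DMSO and ATRA+POM value is from a single library, and these are strongest peaks of a locus that need not lie at the same place.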
